A study of Mus musculus with 12 samples.

Results

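The genes described here are 10 protein-coding genes of the mouse mitochondrial genome. Of these, 7 encode subunits of respiratory complex I (*mt-Nd1*, *mt-Nd2*, *mt-Nd3*, *mt-Nd4*, *mt-Nd4l*, *mt-Nd5* and *mt-Nd6*), *mt-Cytb* encodes cytochrome b of complex III, and *mt-Atp6* and *mt-Atp8* encode subunits of the ATP synthase. They were taken by name from a deposited table of 13232 genes, and 10 of 10 were found in it. RNA had been measured in bone marrow-derived macrophages, cells grown from marrow with the growth factor M-CSF, of wild-type (WT) C57B6/J mice whose diet was either normal (ND) or high in fat (HFD). All 6 libraries used, 3 of each diet, came from cultures moved to serum-free medium on day 4 and held at 1% oxygen for 1 h on day 7. The diet's length, the age of the mice and the number of mice behind each library are not given in the sources used here, so the p-values below measure the spread between libraries, which may be technical. The 6 libraries at normal oxygen were not analysed here, and nothing below describes the response to hypoxia itself.

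The mitochondrial genome is a small circle that is read from both strands into long transcripts, which are cut at the tRNAs that lie between the genes to release single mRNAs. Almost all of the proteins are read from what is called the heavy-strand transcript, and *mt-Nd6* alone comes from the light-strand transcript. Complex I takes electrons from NADH, complex III passes them on through cytochrome b, and the ATP synthase uses the proton gradient these pumps build. The nucleus encodes the other subunits of these complexes and the polymerase, the transcription factors and the RNA-binding proteins that set mitochondrial mRNA levels. In macrophages, respiration through these complexes is known to change with activation state and oxygen supply.

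Coordinates are those of GENCODE M21 on GRCm38, the assembly that mm10 names, and mm10 is the build in the submitters' processing notes. All 10 genes lie on the mitochondrial chromosome (M) as single uninterrupted coding sequences, from *mt-Nd1* at chrM:2751-3707 to *mt-Cytb* at chrM:14145-15288. On the plus strand between them lie *mt-Nd2* (3914 to 4951), *mt-Atp8* (7766 to 7969), *mt-Atp6* (7927 to 8607), *mt-Nd3* (9459 to 9806), *mt-Nd4l* (9877 to 10173), *mt-Nd4* (10167 to 11544) and *mt-Nd5* (11742 to 13565). *mt-Nd6* occupies 13552 to 14070 on the minus strand. Lengths run from 204 bases for *mt-Atp8* to 1824 for *mt-Nd5*.

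Members overlap at 3 places, and a read that spans an overlap covers bases of both genes. The sequences below, from the GENCODE M21 transcripts, are written 5′ to 3′ in the sense of the heavy-strand mRNAs with 30 bases on either side, and the capitals mark the overlap.
*mt-Atp8* to *mt-Atp6*, chrM:7897-7999: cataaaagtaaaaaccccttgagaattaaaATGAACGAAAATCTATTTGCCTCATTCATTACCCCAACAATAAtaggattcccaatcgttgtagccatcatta
*mt-Nd4l* to *mt-Nd4*, chrM:10137-10203: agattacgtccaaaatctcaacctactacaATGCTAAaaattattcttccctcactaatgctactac
*mt-Nd5* to *mt-Nd6*, chrM:13522-13595: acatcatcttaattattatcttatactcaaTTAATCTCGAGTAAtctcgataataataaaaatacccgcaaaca
The overlap is 43 bases for the ATP synthase pair, whose 2 reading frames are carried by 1 mRNA, and 7 bases for the *mt-Nd4l* and *mt-Nd4* pair, also 1 mRNA. It is 14 bases for *mt-Nd5* and *mt-Nd6*, which lie on opposite strands. The kit used keeps strand, but whether the authors counted by strand is not given, so reads of *mt-Nd6* and reads of the heavy-strand transcript across it could not be told apart here.

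The strands also differ in base composition, shown by the opening bases of *mt-Nd6* and of *mt-Cytb*, the next gene along, each written in its own mRNA sense with the start codon in capitals.
*mt-Nd6*, chrM:14011-14070, minus strand: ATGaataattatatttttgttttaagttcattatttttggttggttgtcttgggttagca
*mt-Cytb*, chrM:14145-14204, plus strand: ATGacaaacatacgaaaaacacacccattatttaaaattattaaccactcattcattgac
The coding sequence of *mt-Nd6* is 28.1% G and 5.97% C. In the other 9 members G makes up 5.88% (*mt-Atp8*) to 12.2% (*mt-Cytb*) and C makes up 22.1% (*mt-Nd3*) to 29.97% (*mt-Nd4l*). Of the 10 members, 6 start with ATG in the annotation. *mt-Nd4* and *mt-Cytb* end in a lone T, a stop codon that is known to be completed when the mRNA receives its poly(A) tail.

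The nuclear genome holds old copies of mitochondrial DNA, and a read from a shared stretch can be given to either. Every 75-base window of a member, the length of the reads, was looked up in all annotated transcripts. No window of *mt-Nd1*, *mt-Nd6*, *mt-Cytb* or *mt-Atp8* occurred in another transcript, and the shares were 1.66% for *mt-Nd5* and 5.71% for *mt-Nd2*. By contrast 99.5% of the windows of *mt-Atp6* lay in *Gm10925*, 98.7% of those of *mt-Nd4l* in *Gm10222* and 97.8% of those of *mt-Nd3* in *Gm28438*. These are neighbouring pseudogenes at chr1:24613974-24614651, chr1:24612407-24612700 and chr1:24612775-24613119, all on the minus strand. *Gm10925* and *Gm10222* had no differing base over the 678 and 294 bases placed, and *Gm28438* differed from *mt-Nd3* at 1 of 345, T3C, counted from the first base of *mt-Nd3*. *mt-Nd4* shared 61.5% of its windows with *Gm28439*, which has no row in the table. Copies that carry no annotated transcript were not searched.

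The deposited values are a signal, estimated read counts divided by 1 size factor per library, and they are called levels below. Estimated depths were 19046400 to 24491500 reads per library, and each HFD library was deeper than each ND library before scaling. All 8 macrophage markers on the list used (such as *Adgre1* and *Csf1r*) were in the table, together at 1.55% to 1.81% of all signal. None of the 4 B cell, 4 T cell, 4 erythroid and 4 dendritic cell markers was listed. Of 8 neutrophil markers 6 were listed, with summed levels of 1712 to 2455 in ND and 2109 to 3430 in HFD. Of 4 adipocyte markers only *Fabp4*, which macrophages also express, was listed (772 to 988). *Kit*, 1 of 4 mast cell markers, was at 117 to 226 in ND and 72.4 to 104 in HFD, without overlap. The 2 of 4 stromal markers listed summed to 157 to 417 in ND and 45.4 to 273 in HFD. Their part in the results was not tested. In bulk RNA fewer cells of a type and less RNA per cell cannot be told apart, and the same holds for fewer mitochondrial genomes and less RNA from each.

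The members made up a small part of the RNA. Together they held 0.420%, 0.517% and 0.339% of all signal in the ND libraries and 0.319%, 0.364% and 0.491% in the HFD libraries, each in the order of replicates 1, 2 and 3, which is kept for all values below. The means were 0.426% ± 0.0888 in ND and 0.391% ± 0.0889 in HFD (SD, n = 3 each), and the diets overlapped. The difference of -0.034 percentage points changed sign when ND replicate 2 (0.011) or HFD replicate 1 (0.0016) was left out, and was -0.077 and -0.084 when replicate 3 of ND or of HFD was. The 95% Wilson intervals of these shares were at most 0.00589 percentage points wide and cover counting error only, since PCR copies of 1 molecule cannot be recognised. Reads listed under nuclear copies are not in these shares. *Gm10925* alone was at 8533 to 15922 over the 6 libraries, against 7772 to 13153 for *mt-Atp6*.

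Levels can be compared between genes only per length. Per kilobase of coding sequence, and as means over the 6 libraries, *mt-Nd1* (16944 ± 3100, SD), *mt-Cytb* (16282 ± 2357) and *mt-Atp6* (14961 ± 3213) were highest. *mt-Nd4* (10449.9) and *mt-Nd3* (10437) followed, then *mt-Nd5* (9070), *mt-Atp8* (7259), *mt-Nd6* (6134), *mt-Nd2* (5663) and *mt-Nd4l* (4185). The steps from *mt-Atp6* to *mt-Nd4*, from *mt-Nd5* to *mt-Atp8* and from *mt-Nd2* to *mt-Nd4l* had the same direction in 6 of 6 libraries. The other neighbours changed places in at least 1 library, *mt-Nd4* and *mt-Nd3* in 4 of 6. For *mt-Atp6*, *mt-Nd4l*, *mt-Nd3* and *mt-Nd4* the level also depends on how shared reads were divided.

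**Figure D1:**
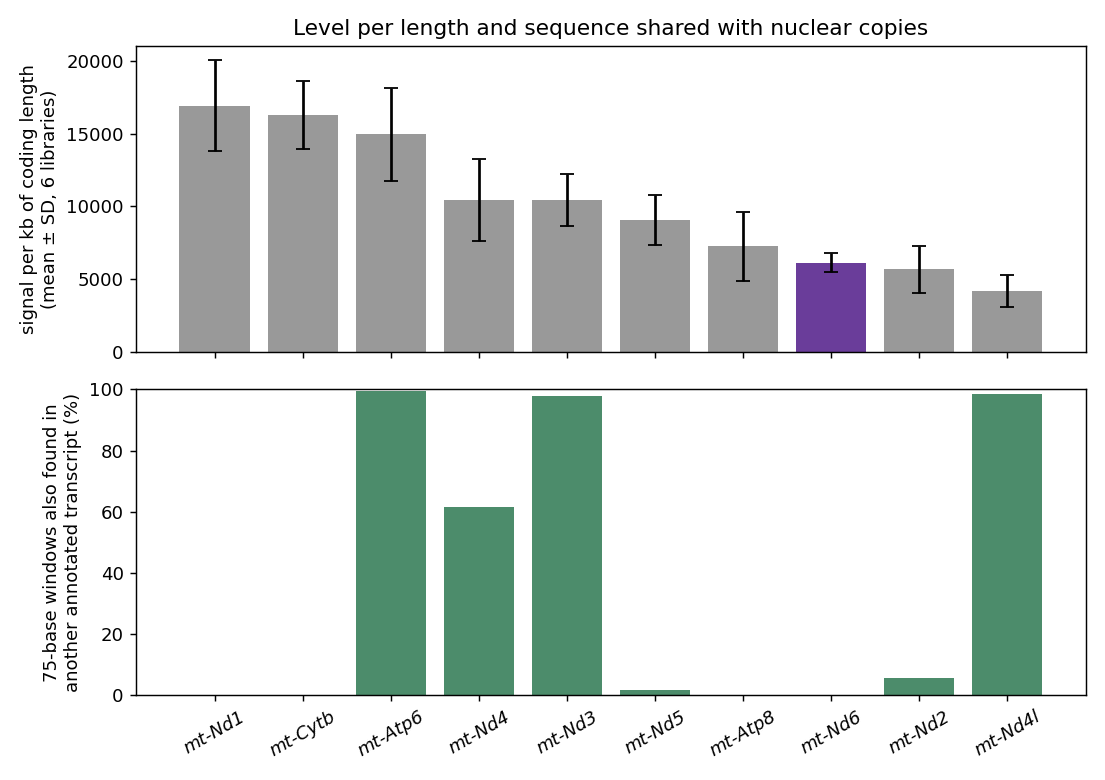
Upper panel: signal per kilobase of coding length for each member (bar, mean of 6 libraries; whisker, SD). Lower panel: percentage of each member's 75-base windows that also occur in another annotated transcript, which is 97.8% or more for *mt-Atp6*, *mt-Nd3* and *mt-Nd4l* and 0 for *mt-Nd1*, *mt-Cytb*, *mt-Atp8* and *mt-Nd6*.

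The comparison of diets asks what the diet of the mouse changed in its cultured macrophages at low oxygen. Of the 10 members 8 had lower means on the log2 scale in HFD and 2 had higher means (*mt-Nd3* and *mt-Cytb*), with a median log2 difference of -0.16. Over all 13232 genes the median was -0.0034, and 51.1% of differences were below 0. No member passed an adjusted p of 0.05 (limma, Benjamini-Hochberg over all genes), and the background share was 0.0%. At an unadjusted p under 0.05 there were 2, *mt-Nd6* and *mt-Atp8*, both lower in HFD, against 5.18% of all genes that were lower at that level. The diets did not overlap for 1 of 10 members, *mt-Nd6*, against 7.07% of all genes that lay wholly lower in HFD and 14.5% that did not overlap in either direction. The median difference was 0.031 without ND replicate 2 and 0.0055 without HFD replicate 1, each with 4 of 10 members lower. It was -0.32 without HFD replicate 3, with 10 of 10 lower, and -0.30 without ND replicate 3, with 9 of 10 lower and no member past the threshold, where 1.76% of all genes were (limma).

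*mt-Nd6*, the membrane subunit of complex I that is read from the light strand, had levels of 3199, 3539.7 and 3605 in ND against 2827, 3091 and 2839.6 in HFD. All HFD values lay below all ND values, by a narrow margin between ND replicate 1 and HFD replicate 2. The ND mean was 3448 ± 218 and the HFD mean 2919 ± 149 (SD, n = 3 each). The log2 difference of -0.24 (SE 0.069) did not pass the threshold (limma adjusted p 0.295, and 0.138 to 0.860 over all alternatives). It had the smallest spread within a diet of all members, 0.083 on the log2 scale. Without 1 library its difference ran from -0.29 to -0.21, and with unequal library weights it was -0.15.

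*mt-Atp8*, a short membrane subunit of the ATP synthase, showed the largest difference in size among the 10. Its levels were 1716, 2200.1 and 1313 in ND against 901, 1040.3 and 1714 in HFD. HFD replicates 1 and 2 lay below every ND library, and HFD replicate 3 lay within the ND range, next to ND replicate 1. The log2 difference was -0.54 (SE 0.23, limma adjusted p 0.454). Unequal library weights, from 0.441 for ND replicate 3 and 0.556 for HFD replicate 3 up to 3.09 for HFD replicate 2, brought it past the threshold (-0.71, limma adjusted p 0.0278, with 8.56% of all genes called). It was -0.82 without HFD replicate 3 and -0.35 without HFD replicate 1, with limma adjusted p-values of 0.0278 to 0.939 over all alternatives. Of the members, *mt-Atp8* and *mt-Nd6* alone came within 0.1 of a whole number of estimated reads in 6 of 6 libraries. *mt-Atp8* rests on 920 to 2250 reads, and counting error is at most 3.30% of its level.

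*mt-Atp6*, the subunit that forms part of the proton channel and is carried on the same mRNA as *mt-Atp8*, had levels of 10543, 13153 and 8312 in ND and 7772, 9065 and 12285 in HFD. Its diets overlapped broadly, with a log2 difference of -0.14 (SE 0.18, limma adjusted p 0.839). The difference was 0.026 without ND replicate 2 and 0.0093 without HFD replicate 1. *Gm10925*, its nuclear copy, was listed at 12058, 15922 and 9586 in ND and 8533, 10145 and 13932 in HFD. The copy thus ran above *mt-Atp6* in each library, and it followed the same order of libraries. Its ratio to *mt-Atp6* was 1.144, 1.21 and 1.153 in ND and 1.098, 1.119 and 1.134 in HFD, without overlap of diets. The part of this in the ratio of *mt-Atp8* to *mt-Atp6* below was not tested. The sum of *mt-Atp6* and *mt-Atp8* was 0.964 to 1.02 times the copy. Since the sequences are identical over the copy's length, the level listed for each depends on how shared reads were assigned.

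**Figure D2:**
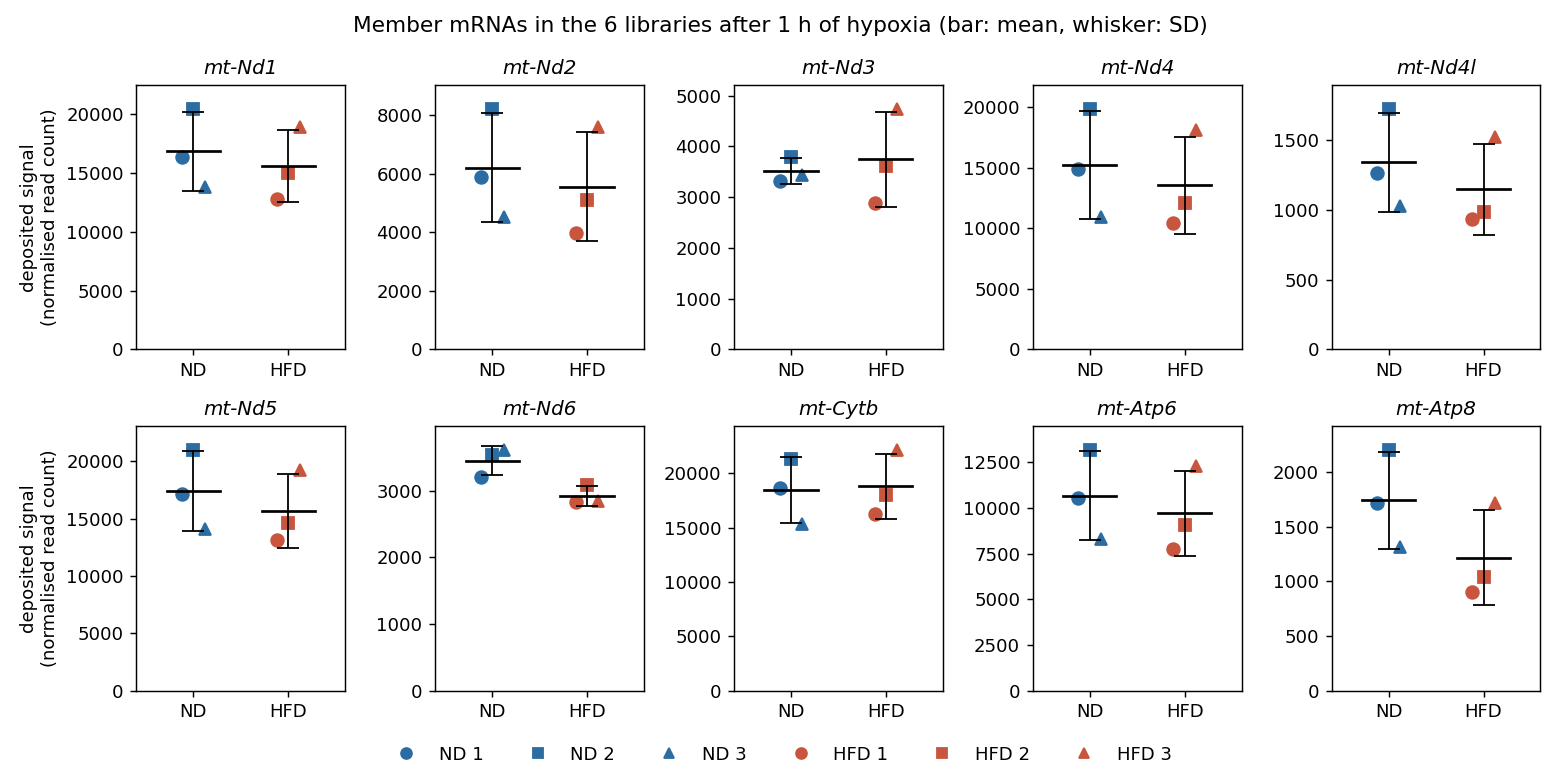
Deposited signal of each member in the 3 ND and 3 HFD libraries (points, shaped by replicate), with the mean (bar) and SD (whisker); axes start at 0. *mt-Nd6* is the member whose diets do not overlap, and ND replicate 2 and HFD replicate 3 are high in most of the others.

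Among the complex I genes of the heavy strand, *mt-Nd2*, one of the membrane subunits of the proton pump, varied most. Its levels were 5896, 8204 and 4509 in ND and 3969, 5088 and 7605 in HFD, a 2.07-fold range over the 6 libraries. High and low libraries occurred in both diets, and the log2 difference of -0.17 (SE 0.24, limma adjusted p 0.853) was smaller than its SE. *mt-Nd4*, a pump subunit at the far end of the membrane arm, behaved alike, with 14879, 19876 and 10953 in ND and 10468, 12125 and 18099 in HFD. Its difference was -0.17 (SE 0.23, limma adjusted p 0.847). *mt-Nd4l*, the short subunit carried on the same mRNA as *mt-Nd4*, had levels of 1267, 1722 and 1028 in ND and 934, 985 and 1523 in HFD. Its difference was -0.23 (SE 0.21, limma adjusted p 0.749).

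*mt-Nd1*, the subunit beside the quinone-binding site, had levels of 16321, 20437 and 13791 in ND and 12804, 15031 and 18909 in HFD. *mt-Nd5*, the largest mitochondrially encoded subunit of complex I, had 17200, 20979 and 14073 in ND and 13132, 14611 and 19272 in HFD. Both genes ranked the libraries in the same way and overlapped between diets. Their log2 differences were -0.11 (SE 0.16, limma adjusted p 0.850) for *mt-Nd1* and -0.15 (SE 0.16, limma adjusted p 0.788) for *mt-Nd5*. Without ND replicate 2 the difference was 0.036 for *mt-Nd1*, 0.055 for *mt-Nd2* and 0.048 for *mt-Nd4*, and it was close to 0 for *mt-Nd5* (-0.0088) and *mt-Nd4l* (-0.028). Without HFD replicate 3 it was -0.26, -0.42 and -0.39 in that order, -0.31 for *mt-Nd5* and -0.45 for *mt-Nd4l*, and without ND replicate 3 it was -0.25, -0.38 and -0.38.

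*mt-Nd3*, a small complex I subunit next to the quinone site, had levels of 3311, 3801 and 3438 in ND and 2884, 3620 and 4738 in HFD. The ND libraries lay close together and the HFD libraries lay on both sides of them (log2 difference 0.064, SE 0.15, limma adjusted p 0.912). It was 0.24 without HFD replicate 1 and -0.12 without HFD replicate 3. With the reads of *Gm28438* added it was 0.11. The share of *Gm28438* relative to *mt-Nd3* was 3.37% to 10.3% in ND and 3.92% to 16.2% in HFD.

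*mt-Cytb*, the subunit of complex III that holds both of its quinone sites, had levels of 18686, 21337 and 15334 in ND and 16259, 18025 and 22117 in HFD. The groups overlapped, and the log2 difference was 0.028 (SE 0.14, limma adjusted p 0.961). The sign changed when ND replicate 3 (-0.099) or HFD replicate 3 (-0.095) was left out, with quantile normalization (-0.0067) and with unequal library weights (-0.055). The 95% interval of the difference ran from -0.28 to 0.33, so changes of that size in either direction are not shown to be absent. For *mt-Nd2* the interval was wider, from -0.72 to 0.38.

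**Figure D3:**
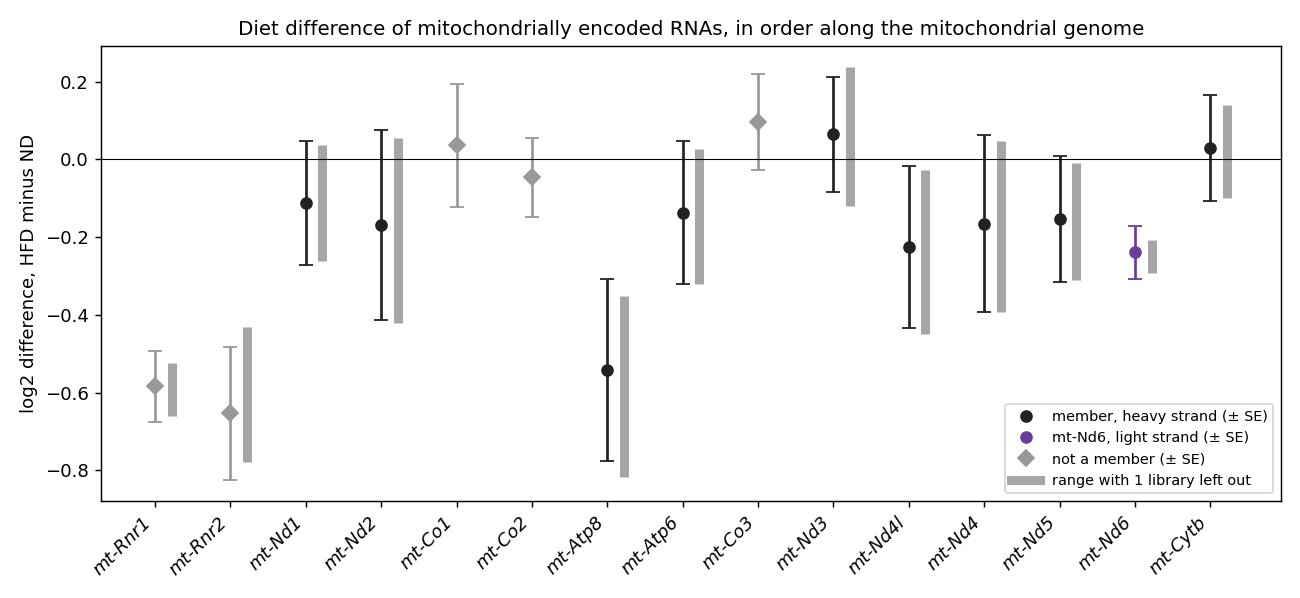
Log2 difference between HFD and ND (± SE) for the 15 mitochondrially encoded RNAs in the table, in gene order along the mitochondrial genome; grey bars beside the members and rRNAs give the range when 1 library is left out. The bars of *mt-Nd4l*, *mt-Nd5*, *mt-Nd6* and *mt-Atp8* stay below 0, and those of *mt-Nd1*, *mt-Nd2*, *mt-Nd3*, *mt-Nd4*, *mt-Cytb* and *mt-Atp6* cross it.

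The 9 heavy-strand members were high or low in the same libraries, and these libraries were of both diets. ND replicate 2 was the highest or next highest library for 9 of 9 and HFD replicate 3 for 8 of 9, while HFD replicate 1 was the lowest for 8 of 9. Averaged over the 9 genes, the log2 level relative to each gene's mean was 0.064, 0.40 and -0.23 in ND against -0.38, -0.17 and 0.32 in HFD. *mt-Nd6* gave 0.014, 0.16 and 0.19 in ND and -0.16, -0.036 and -0.16 in HFD, so it was low in HFD replicate 3, where the heavy-strand members were high. It was high in ND replicate 3, where 9 of 9 heavy-strand members were below their mean. Estimated depths were 22805200 reads for ND replicate 2, 24491500 for HFD replicate 3, 23017000 for HFD replicate 1 and 19046400 for ND replicate 3, and their part in this pattern was not tested.

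The heavy-strand members varied widely within a diet. The median SD of log2 levels within a diet was 0.31 for the 10 members, 0.085 for 4156 genes whose mean level was 1000 or more, and 0.12 over all genes. It was 0.083 for *mt-Nd6*. Mitochondrial RNAs that are no members had values of 0.24 for *mt-Co1*, 0.20 for *mt-Co3*, 0.16 for *mt-Co2*, 0.30 for *mt-Rnr2* and 0.13 for *mt-Rnr1*, and the nuclear copy *Gm10925* had 0.36. The members were chosen by name and not by this spread, and no test was made of it. Every member had at least 870 estimated reads in each library, where counting error is 3.39% of the level.

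**Figure D4:**
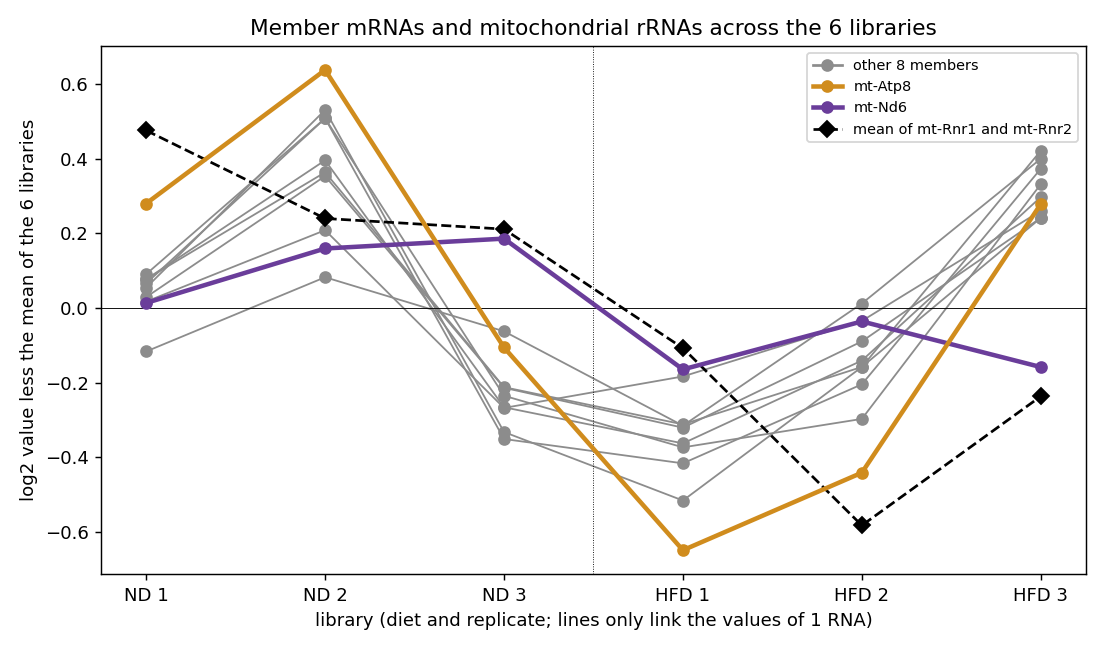
Log2 level of each member in each library, less that gene's mean over the 6 libraries, with *mt-Atp8* in orange, *mt-Nd6* in purple and the mean of the rRNAs *mt-Rnr1* and *mt-Rnr2* as a dashed line. The heavy-strand members peak in ND replicate 2 and HFD replicate 3, whereas *mt-Nd6* (-0.16) and the rRNAs (-0.24) are below their means in HFD replicate 3.

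Ratios between members within a library do not depend on the scaling between libraries. Of the 45 ratios between 2 members, 10 had diets that did not overlap, and 8 of these 10 were the ratios of *mt-Atp8* to each of the other heavy-strand members, all lower in HFD. These 8 share a gene and are not independent. Of the 36 ratios without *mt-Atp8*, 2 did not overlap. The share among ratios of other genes is not given here. The 14.5% of single genes without overlap is an unlike measure, since it is of levels scaled to the whole table. *mt-Atp8* was 0.163, 0.167 and 0.158 times *mt-Atp6* in ND against 0.116, 0.115 and 0.140 times in HFD. The means were 0.163 ± 0.00464 and 0.123 ± 0.0140 (SD, n = 3 each), with the lowest ND ratio above the highest HFD ratio. With the reads of *Gm10925* added to *mt-Atp6* the ratio was 0.0734 to 0.0759 in ND and 0.0542 to 0.0654 in HFD.

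Relative to the mean log2 level of the other 8 heavy-strand members, a measure chosen after these values were seen, *mt-Atp8* stood at -2.26, -2.23 and -2.36 in ND and -2.80, -2.81 and -2.54 in HFD. The difference of means was -0.43, and the diets did not overlap. The share of all genes whose diets do not overlap on this measure is not given here, so how unusual the separation is cannot be said. Because *mt-Atp8* was picked for this pattern, no test was made of it. *mt-Atp8* shares 43 of its 204 bases with *mt-Atp6*, and the part of the assignment of reads in that stretch was not tested. On chromosome 1 the copy of *mt-Atp6* (*Gm10925*) ends at base 24614651 and that of *mt-Co2* (*Gm28661*) starts at base 24614885. The stretch between them was not searched for a copy of *mt-Atp8*, so its share of 0 windows covers annotated transcripts only.

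The other ratios with no overlap were those of *mt-Cytb* to *mt-Nd1* and to *mt-Nd5*. *mt-Cytb* was 1.14, 1.04 and 1.11 times *mt-Nd1* in ND and 1.27, 1.20 and 1.17 times in HFD, so each HFD library lay above each ND library. The other pair carried on 1 mRNA, *mt-Nd4l* to *mt-Nd4*, had ratios of 0.0851, 0.0866 and 0.0938 in ND and 0.0892, 0.0812 and 0.0842 in HFD, which overlapped. *mt-Nd5* stayed closest to *mt-Nd1*, at 1.02 to 1.05 times in ND and 0.972 to 1.03 times in HFD.

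*mt-Nd6* made up 3.44%, 3.07% and 4.72% of the summed member signal in ND against 3.93%, 3.74% and 2.60% in HFD. These shares overlapped. On the log2 scale, *mt-Nd6* over the sum of the other members differed by -0.13 between diets, with an SD within a diet of 0.33. It was 0.054 without ND replicate 3 and 0.060 without HFD replicate 3, and -0.27 without ND replicate 2. *mt-Nd6* was thus wholly lower in HFD when scaled to the whole table and overlapped when set against the other members.

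**Figure D5:**
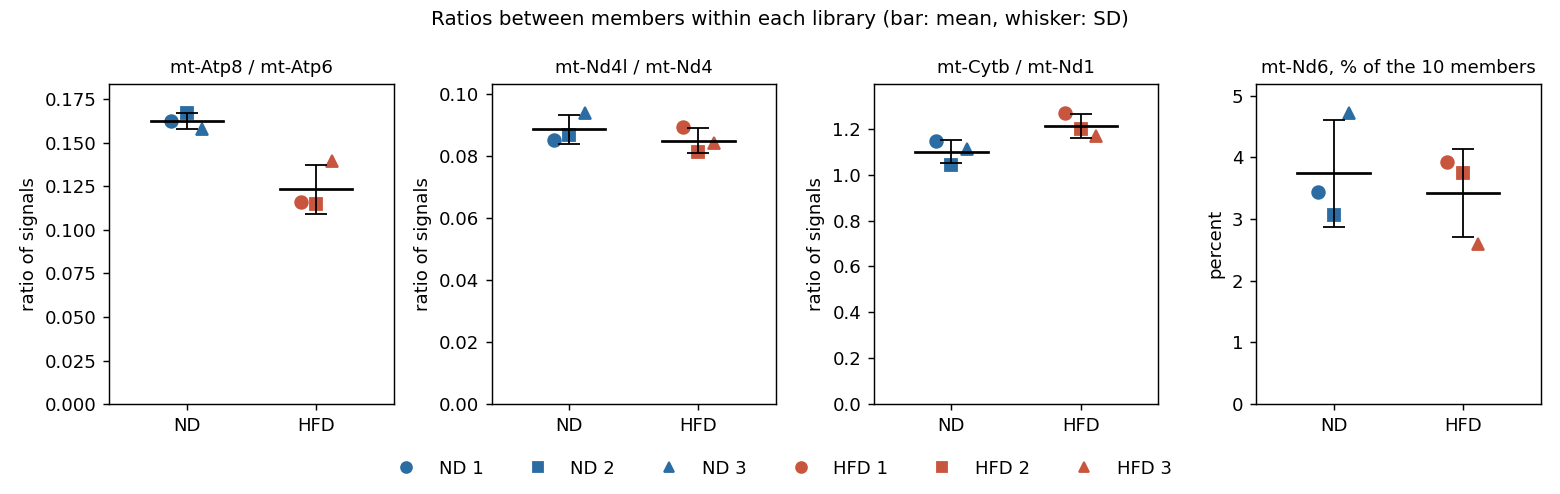
Ratios of signal between members in the 3 ND and 3 HFD libraries (points, shaped by replicate; bar, mean; whisker, SD; axes start at 0). The *mt-Atp8* to *mt-Atp6* ratio is 0.158 to 0.167 in ND and 0.115 to 0.140 in HFD, and the *mt-Cytb* to *mt-Nd1* ratio also separates the diets, whereas the other 2 panels overlap.

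The remaining mitochondrially encoded RNAs in the table were the 3 complex IV mRNAs and the 2 rRNAs, with no tRNA listed. *mt-Co1*, *mt-Co2* and *mt-Co3* had log2 differences of 0.036, -0.047 and 0.095 (limma adjusted p 0.957, 0.908 and 0.834) and overlapping diets. *mt-Rnr1* and *mt-Rnr2* were lower in HFD by more, -0.58 and -0.65, with no overlap of diets and limma adjusted p-values of 0.113 and 0.278. *mt-Rnr1* passed with unequal library weights (limma adjusted p 0.0044), without ND replicate 3 (0.0159) and with the replicate number as a block (0.0372), and *mt-Rnr2* with unequal weights (0.0106). The libraries had been depleted of ribosomal RNA with probes, and how far the rRNA levels follow that step was not tested. ND replicate 1 had the highest rRNA level (0.48 above the mean on the log2 scale) and HFD replicate 2 the lowest (-0.58), neither of which was extreme in the members.

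The nuclear genes are read against the whole table, where 0.0% of genes passed the threshold and 10.6% had an unadjusted p under 0.05 (limma). Of 18 genes for mitochondrial transcription, 16 were in the table, 9 higher and 7 lower in HFD, with a median log2 difference of 0.0063 and 0 past the threshold (limma, 0 also at an unadjusted p under 0.05). *Polrmt*, the mitochondrial RNA polymerase, had means of 305 ± 22.6 in ND and 326 ± 30.2 in HFD (log2 difference 0.093, limma adjusted p 0.796). *Tfam*, which packs mitochondrial DNA and starts its transcription, had the lowest difference of the list (-0.11, 381 ± 39.6 against 353 ± 4.88, limma adjusted p 0.741). *Mterf1b*, of the family of mitochondrial termination factors, had the highest (0.42, limma adjusted p 0.694), at low levels of 19.0 to 44.0.

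Of 22 genes for processing and stability of mitochondrial RNA, 22 were in the table, with 16 higher, 6 lower, a median of 0.052 and 0 past the threshold (limma; 1 higher at an unadjusted p under 0.05, as were 5.4% of all genes, and 10.6% in either direction). *Lrpprc* and *Slirp*, partners that stabilise the mRNAs of the heavy strand, had differences of 0.020 (limma adjusted p 0.945) and 0.093 (0.859). *Slirp* was 363, 379 and 339.7 in ND and 308, 391 and 469.8 in HFD, and *Lrpprc* was 1306 to 1447 in ND and 1334 to 1467 in HFD. *Ptcd2*, a pentatricopeptide-repeat protein known for a role in processing *mt-Cytb* RNA, was the highest of the list, at 445, 453 and 436 in ND and 505, 487 and 519 in HFD. All its HFD values lay above all ND values, as for 7.44% of all genes (log2 difference 0.18, SE 0.073, limma adjusted p 0.431). *Trmt61b*, a mitochondrial tRNA methyltransferase, was the lowest (-0.22, limma adjusted p 0.730).

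Of 16 genes that copy and maintain mitochondrial DNA, 16 were in the table, 6 higher and 10 lower (median -0.022), with 0 past the threshold (limma; 1 at an unadjusted p under 0.05). That gene was *Polg2*, the accessory subunit of the mitochondrial DNA polymerase, with means of 237 ± 20.7 in ND and 198 ± 19.4 in HFD (log2 difference -0.26, limma adjusted p 0.465). Its diets overlapped narrowly, as HFD replicate 1 (220.3) lay just above ND replicate 2 (220.0). *Slc25a33*, a mitochondrial carrier of pyrimidine nucleotides, was the highest (0.45, limma adjusted p 0.633).

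Of 37 nuclear complex I subunits, 36 were in the table, 21 higher and 15 lower (median 0.020), with 0 past the threshold (limma; 1 at an unadjusted p under 0.05, *Ndufa12*). *Ndufa12* had a difference of 0.32 (limma adjusted p 0.421) and *Ndufb3* the lowest, -0.23 (0.552). Of 16 complex I assembly factors 13 were in the table, 10 higher and 3 lower (median 0.098, 0 by limma and 0 at an unadjusted p), from *Ndufaf8* (-0.091) to *Nubpl* (0.23), which carries iron-sulfur clusters to complex I.

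Of 13 complex III genes 13 were in the table, 6 higher and 7 lower (median -0.015), with 0 past the threshold (limma; 1 at an unadjusted p under 0.05, *Uqcc3*). *Uqcc3*, an assembly factor of complex III, had levels of 235, 221 and 237 in ND and 216, 183 and 177 in HFD, with no overlap (log2 difference -0.27, SE 0.11, limma adjusted p 0.431). *Uqcrq* was the highest of that list (0.15). Of 16 nuclear ATP synthase genes 16 were in the table, 11 higher and 5 lower (median 0.021, 0 by limma and 0 at an unadjusted p), from *Atp5j* (-0.13) to *Atp5g2* (0.17). Of 13 genes for mitophagy and oxygen-responsive switches of respiration 11 were in the table, 7 higher and 4 lower (median 0.084, 0 by limma and 0 at an unadjusted p). The highest was *Higd1a* (0.24, limma adjusted p 0.636), a hypoxia-induced protein of the inner membrane. *Ndufa4l2* and *Cox4i2*, hypoxia-induced forms of respiratory subunits, were not among the rows of the table.

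Across the 6 libraries, the genes outside the mitochondrial genome whose log2 levels followed the mean of the members most closely were *Gm10925* (Pearson's r 0.997), *Thumpd1* (0.990), *Smim4* (0.984), *Ift46* (0.984) and *Pmp22* (0.983). They were picked as the closest of 10779 genes with a mean of at least 100, and all points share libraries and scaling. *Gm10925* holds the sequence of *mt-Atp6*. The other 4 moved far less than the members, *Thumpd1* from 648 in HFD replicate 1 to 715 in ND replicate 2, and *Pmp22* from 10158 to 12045 in the same libraries.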

How the data were processed

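The authors deposited 1 table with a signal per gene and library. STAR, Partek and mm10 are named in the submitters' processing notes, and their versions, roles, the annotation and any filter are not given in the sources used here. The signal was read from the values as estimated counts divided by a size factor. Of values between 5 and 1000, 57.1% to 58.4% were whole multiples of 1 step (within 0.02), too few for a test on reads. NC in column names was read as the normal diet, the other diet in the labels. No library pair differed by less than counting noise (at least 2.93 times its variance).

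Levels were compared as log2(value + 1), which understates changes of low genes, with limma 3.58.1 in R 4.3.3 (mean-variance trend, two-sided, 3 against 3 libraries). The Benjamini-Hochberg adjustment covered 13232 genes. SE is limma's. A mean filter at 1 removed 0 genes. Shares, ratios and 75-base windows used Python 3.11.15 and GENCODE M21. The fit was tested on simulated data with known changes.

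Members, lists and tests were chosen with earlier results of these data known. The rule named every member, the other mitochondrial RNAs, nuclear copies, *Polrmt*, *Tfam*, *Lrpprc* and *Slirp*, the highest and lowest gene of each list, and the 5 genes most like the members; 1 gene so named is not reported here. Alternatives were pseudocount, filters, scaling, trend, weights, a replicate block and leaving out each library.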

Additional observations from a re-analysis of the deposited data

How the results depend on the processing

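The count of genes with a limma adjusted p under 0.05 was 0 (1401 at an unadjusted p) and stayed 0 with a pseudocount of 0.1, without the filter, with a minimum of 10, with both total scalings, with quantile normalization, without the trend and with nuclear copies summed, an alternative chosen after seeing the data. It was 1133 with unequal library weights and ran from 0 to 233 without 1 library, with 233 without ND replicate 3. The replicate block gave 31. The labels do not say whether replicate numbers pair libraries. Residuals of libraries with equal numbers had correlations of -0.01, -0.04 and -0.00 over all genes, which cannot show whether some genes follow a pairing. With the block no member passed (lowest, *mt-Nd6*, limma adjusted p 0.207).

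Over 10 members and 16 alternatives, 146 of 160 values had the direction and call of the reported value, 1 newly passed (*mt-Atp8* with unequal weights) and 13 reversed, 11 of these without 1 library. Without 1 library the differences ran from -0.26 to 0.036 for *mt-Nd1*, -0.42 to 0.055 for *mt-Nd2*, -0.12 to 0.24 for *mt-Nd3*, -0.39 to 0.048 for *mt-Nd4*, -0.099 to 0.14 for *mt-Cytb* and -0.32 to 0.026 for *mt-Atp6*. *mt-Nd1* (0.020), *mt-Nd2* (0.047), *mt-Nd4* (0.0017) and *mt-Atp6* (0.0093) were above 0 without HFD replicate 1 too. *mt-Cytb* was -0.095 without HFD replicate 3, -0.0067 with quantile normalization and -0.055 with unequal weights. *mt-Nd4l*, *mt-Nd5*, *mt-Nd6* and *mt-Atp8* were below 0 in all 16, though *mt-Nd5* (-0.0088) and *mt-Nd4l* (-0.028) were close to 0 without ND replicate 2. The cause was not tested. With 3 libraries a diet, differences inside the intervals given cannot be shown.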

Other observations

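The 10 genes made up 30.9%, 32.0% and 31.2% of the signal of the 13 mitochondrially encoded mRNAs in ND against 27.7%, 28.6% and 31.4% in HFD (replicates 1, 2 and 3). The rest is complex IV mRNA, mostly *mt-Co1*, the catalytic subunit of cytochrome c oxidase, which alone was 0.594% to 0.893% of all signal in ND and 0.670% to 0.866% in HFD. The share of the 10 genes was lower than every ND value in HFD replicates 1 and 2 but not in HFD replicate 3. *mt-Co1*, *mt-Co2* and *mt-Co3* share with nuclear copies 39.8%, 99.5% and 99.9% of their 75-base windows, in that order, and *Gm28437*, the copy of *mt-Co3*, was listed at 1.00 times *mt-Co3* in each library. *Gm29216*, a chromosome 1 copy that holds 27.5% of the windows of *mt-Co1*, was listed at 980.1, 1164 and 663 in ND against 2503, 3273 and 3675 in HFD. All its HFD values lay above all ND values (log2 difference 1.77, SE 0.20), unlike those of *mt-Co1* itself, and its limma adjusted p of 0.0656 was the lowest of all genes. It passed with unequal library weights (0.00148), with the replicate block (0.0315) and without ND replicate 2 (0.0473), ND replicate 3 (0.00834) or HFD replicate 1 (0.0276), and its adjusted p was 0.358 without HFD replicate 2. Its level, too, depends on how shared reads were assigned.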
